A study of Mus musculus with 8 samples.

Results

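The 9 genes described here encode 7 lysosomal proteases (Ctsb, Ctsc, Ctsd, Ctsl, Ctss, Ctsz and Lgmn) and 2 cystatins, the inhibitors Cst3 and Cstb, out of 32502 genes in the count tables. They were chosen by name and were followed as CPM, the UMIs of a gene (unique molecular identifiers, each counting an RNA molecule caught on a bead) per 1000000 UMIs of a cell class, in each of 8 Drop-seq libraries. GL261 mouse glioma cells, 500 per mouse, had been implanted into the brain of C57BL/6N mice, and tumours were taken at the early (5 to 10 mm3), intermediate (20 to 25 mm3) and late (30 to 35 mm3) stage. The hosts were wild type (WT, Irg1/Acod1 +/+) or carried 2 copies of an Acod1 allele with an insertion cassette (KO, Irg1/Acod1 -/-), and naïve mice of both genotypes received no tumour cells. There was 1 library for each genotype and stage, from 1 mouse per tumour-bearing library, while the title of each naïve library names 2 animals. In the study's methods the mice were age-matched, with no age given, and WT and KO differed in sex at the early (female and male) and intermediate (male and female) stage, so genotype and sex cannot be told apart there; both late mice were male.

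Cathepsins are proteases of the acidic endosome and lysosome, made as inactive precursors, and together with the asparaginyl endopeptidase legumain (Lgmn) they break down proteins taken up by the cell and trim antigens for presentation. Most are cysteine proteases, Ctsd is an aspartic protease, and Ctss is known for cutting the invariant chain of MHC class II molecules in antigen-presenting cells. Cystatin C (Cst3) is a secreted inhibitor of cysteine cathepsins, and cystatin B (Cstb) is its relative in the cytosol and nucleus. RNA was measured here, not protein or enzyme activity.

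The genes lie apart from each other in the genome, at chr14:63122462-63145923 (Ctsb, plus strand), chr7:88278085-88310888 (Ctsc, plus), chr7:142375911-142388038 (Ctsd, minus), chr13:64359337-64370890 (Ctsl, minus), chr3:95526786-95556403 (Ctss, plus), chr2:174427493-174439039 (Ctsz, minus), chr12:102394084-102439813 (Lgmn, minus), chr2:148871722-148875692 (Cst3, minus) and chr10:78425669-78427622 (Cstb, plus) of GRCm38 in GENCODE M21. Gene models on the same strand overlap Ctsd (Gm49369), Ctsl (Gm49230) and Ctss (Hmgb1-ps5), and reads shared with them could have been lost or split in the authors' counting. A RefSeq promoter of GRCm38.p6 was at hand for 7 of the 9 genes, 2 of them for Lgmn, and Ctsb and Cstb had none. The promoters below are those of Ctsd and Cst3, the protease and the cystatin with the widest gap between TAM I and TAM II (the microglia-like and macrophage-like cells of the tumours), of Ctsc, the protease higher in TAM II, and of Ctss, the member with the widest gap between myeloid and tumour cells, shown from 250 bases before the start site to 20 after it, 5′ to 3′ on the gene's strand, with motif matches in capitals. Ctsd is at chr7:142387808-142388077, Cst3 at chr2:148875493-148875762, Ctsc at chr7:88277835-88278104 and Ctss at chr3:95526536-95526805.
Ctsd: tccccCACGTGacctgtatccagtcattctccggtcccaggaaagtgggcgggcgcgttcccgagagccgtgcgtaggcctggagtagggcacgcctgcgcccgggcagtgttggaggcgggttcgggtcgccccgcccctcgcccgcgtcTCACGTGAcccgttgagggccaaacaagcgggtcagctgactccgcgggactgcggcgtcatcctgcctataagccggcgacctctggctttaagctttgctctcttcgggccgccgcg
Cst3: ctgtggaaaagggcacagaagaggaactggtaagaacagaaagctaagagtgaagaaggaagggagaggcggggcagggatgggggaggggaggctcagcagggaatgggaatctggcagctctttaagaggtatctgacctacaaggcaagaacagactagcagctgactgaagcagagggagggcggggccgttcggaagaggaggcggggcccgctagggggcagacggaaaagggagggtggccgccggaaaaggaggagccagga
Ctsc: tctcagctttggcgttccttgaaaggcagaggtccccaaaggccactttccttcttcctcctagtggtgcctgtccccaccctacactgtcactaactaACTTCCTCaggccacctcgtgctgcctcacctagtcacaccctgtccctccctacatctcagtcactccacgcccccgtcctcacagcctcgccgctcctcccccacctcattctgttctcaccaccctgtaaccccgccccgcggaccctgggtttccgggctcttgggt
Ctss: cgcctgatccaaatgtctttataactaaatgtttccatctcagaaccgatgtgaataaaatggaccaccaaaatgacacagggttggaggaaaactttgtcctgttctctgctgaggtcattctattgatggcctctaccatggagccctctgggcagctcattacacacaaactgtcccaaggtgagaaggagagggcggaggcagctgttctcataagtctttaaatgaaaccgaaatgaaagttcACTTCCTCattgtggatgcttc
The motifs searched on both strands were the E-box CACGTG, the longer TCACGTGA that contains it and is known as a core of the sites bound by TFEB, a regulator of lysosomal genes, and GAGGAAGT (ACTTCCTC on the other strand), a sequence bound by the myeloid factor PU.1. CACGTG stood in 7.15% of all 32851 promoters of the table, TCACGTGA in 0.974% and GAGGAAGT in 3.20%. The Ctsd promoter held CACGTG 245 and 98 bases before the start, the latter inside TCACGTGA, and CACGTG also stood in the promoter of Ctsl (236 bases before the start) and in the second promoter of Lgmn (49 bases). The PU.1 sequence stood as ACTTCCTC 151 bases before the start of Ctsc and 2 bases before that of Ctss, and none of these motifs was found in the windows of Cst3 and Ctsz. Such a match describes the letters and shows no binding.

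The tables held 3000 barcodes and 2885345 to 9950713 UMIs per library, and 5698 cells passed the filters, 454 to 1000 per library, with at most 2 barcodes shared by any pair of libraries. Cells were named from markers with all 9 members left out of the clustering, as 3403 tumour cells, 372 microglia-like cells (199 naïve, and 173 in tumours, called TAM I), 453 macrophage-like cells (TAM II, 451 of them in tumours) and 11 other classes. Of the cells named tumour cells 9 lay in naïve libraries, whose mice received none. Their origin was not tested, and the comparisons of tumour cells left them out. The WT intermediate library was mostly tumour cells (927 of 1000) and gave 5 TAM I, 17 TAM II and 3 astrocytes, so its astrocytes were not used. Acod1, the disrupted gene, had 140, 5 and 4 UMIs in the tumour-associated myeloid cells of WT early, intermediate and late and 27, 6 and 33 in those of KO, and 0 in both naïve libraries. The late myeloid sums held 200819 UMIs in WT and 543210 in KO. In the study Acod1 could not be detected by qPCR in macrophages grown from KO bone marrow. Why the KO libraries held Acod1 UMIs was not tested, and these counts do not check the genotype labels.

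In the tumours, 6 of the 7 proteases were highest in TAM I, Ctsc was highest in TAM II, Cst3 was as high in astrocytes as in TAM I, and Cstb was highest in the tumour cells. Together the 7 proteases took 2.375 to 3.411% of all UMIs in TAM I, 1.56 to 2.448% in TAM II and 0.08063 to 0.1603% in tumour cells, where every library kept this order. Ctss was the most abundant protease RNA, with a median over libraries of 10880 CPM in TAM I and 7307 in TAM II, followed by dendritic cells at 1127 (2 libraries) and lymphocytes at 309.6. Ctsd followed in TAM I at 7061. Values are per cell class and not per transcript length, as the method counts 3′ ends.

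**Figure D1:**
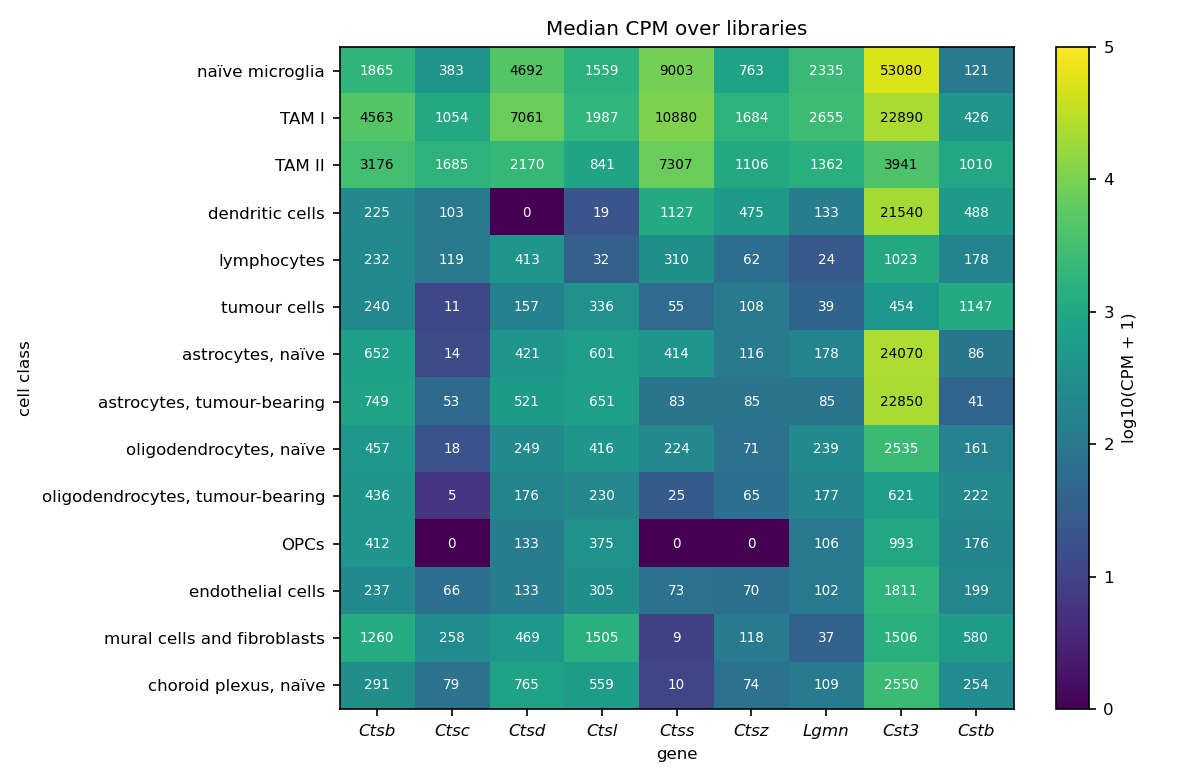
Median CPM over the libraries of each cell class (rows) for the 9 genes (columns), coloured on a log10 scale after adding 1. The 3 top rows, naïve microglia, TAM I and TAM II, hold the highest values of the proteases except Ctsl, which is higher in mural cells and fibroblasts (1505) than in TAM II (841), whereas Cst3 is also high in astrocytes (22850 in tumours) and dendritic cells (21540), and Cstb is highest in tumour cells at 1147.

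Outside the myeloid cells the members differed in their next class. Ctsb, a protease with both endo- and exopeptidase activity, stood at 748.7 CPM in astrocytes of tumours, and it was 1260 in mural cells and fibroblasts, where Ctsl, a broad endopeptidase, reached 1505 (both from 2 libraries). OPCs (oligodendrocyte precursor cells) had a median of 0 for Ctsc, Ctss and Ctsz, with at most 10.07 for Ctss and 61.73 for Ctsz. Over 8 classes present in at least 5 tumour libraries, each member had its classes ordered by median and each class was tested against the next one with an exact two-sided sign-flip test over libraries. Of 63 such pairs, 23 were in the same order in every library, 8 reached an unadjusted p under 0.05, and none passed after adjustment (smallest adjusted p = 0.1514), since 6 libraries cannot give a p below 0.03125 and 5 cannot give one below 0.0625. Ctsd and Ctsl were higher in TAM I than in TAM II in 6 of 6 libraries, Ctsc was higher in TAM II in 6 of 6, Cst3 was higher in TAM I than in astrocytes in 2 of 5 (medians 22890 and 22850), and Cstb was higher in tumour cells than in TAM II in 4 of 6 (exact p = 0.375).

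The comparison of all tumour-associated myeloid cells (TAM I and TAM II summed) with tumour cells asks which members belong to the myeloid compartment and which the GL261 cells carry too. Of the 9 members 8 were higher in myeloid cells, from Ctsl with a log2 fold change of 2.31 ± 0.25 (SE) to Ctss with 7.69 ± 0.59, each in 6 of 6 libraries without overlap of the classes. Of the 89 other lysosomal genes found (97 listed), 56 did not overlap between the classes either, and the share over all genes was not counted. Ctss had 45.07, 65.81, 8.615, 20.46, 72.12 and 343.7 CPM in tumour cells (always in the order WT early, KO early, WT intermediate, KO intermediate, WT late and KO late) against at least 6081 in either TAM class. Ctsl, in contrast, had 397.7, 388, 298.4, 262.9, 318.8 and 354 in tumour cells, the highest protease there in 5 of 6 libraries. Cstb had 1266, 1448, 891.6, 1028, 1925 and 722.1 in tumour cells and was the member that did not differ (-0.07 ± 0.17, adjusted p = 0.737).

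Among all 11609 genes tested, 24.4% were called higher in myeloid cells, with a median log2 fold change of -0.289, whereas the median of the 9 members was 4.40. The other lysosomal genes moved alike: 63 of 77 tested were higher and 4 lower, with a median of 1.69. The largest increases were in Cd68 (7.26 ± 0.49), a lysosomal membrane glycoprotein of macrophages, Laptm5 (7.18 ± 0.53), a lysosomal membrane protein of blood cells, and Acp5 (6.70 ± 0.28), an acid phosphatase. The 3 largest decreases were in another cystatin, Cst6 (-3.63 ± 0.33), in Laptm4b (-3.13 ± 0.22) and in Atp6v0e (-0.66 ± 0.13), a subunit of the proton pump. Each of these 6 had an adjusted p of 0.000468 or lower.

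Part of the protease RNA counted in tumour cells moved with myeloid RNA. The microglial complement genes C1qa, C1qb and C1qc stood in tumour cells at 0.078 to 0.835% of their myeloid level in 5 libraries and at 4.39% in KO late. At that share, myeloid RNA would carry 57.95 to 124.4% of the Ctss and 39.46 to 189% of the Ctsc seen in tumour cells, but 0.792 to 11.28% of the Ctsl and 0.092 to 4.747% of the Cstb. The other members had highest shares of 74.62% (Lgmn), 42.63% (Ctsb), 35.12% (Cst3), 34.37% (Ctsz) and 32.64% (Ctsd), all in KO late. Some shares exceeded the whole level, which is not possible, so scaling by C1q gives rough values only. KO late was also the library with the highest Ctsb (376.4 CPM), Ctsc (79.7), Ctsd (198.6), Ctss, Ctsz (149.6), Lgmn (101.1) and Cst3 (806.4) in tumour cells. Ctsl and Cstb were highest in other libraries. How the myeloid RNA of KO late bears on these values was not tested further.

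By edgeR TAM II differed from TAM I in all 9 members, and by DESeq2 in 8, without Ctsb. The calls of Ctsb and Ctss were the least stable, as given below. Ctsc and Cstb were higher in TAM II, and the other 6 proteases and Cst3 were lower. The widest gap was in Cst3, which fell by 2.52 ± 0.19 on the log2 scale (adjusted p = 3.53e-08), and the widest among the proteases was in Ctsd (fell by 1.61 ± 0.22, adjusted p = 3.59e-05). Both classes came from the same 6 mice, and the library was kept as a block.

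**Figure D2:**
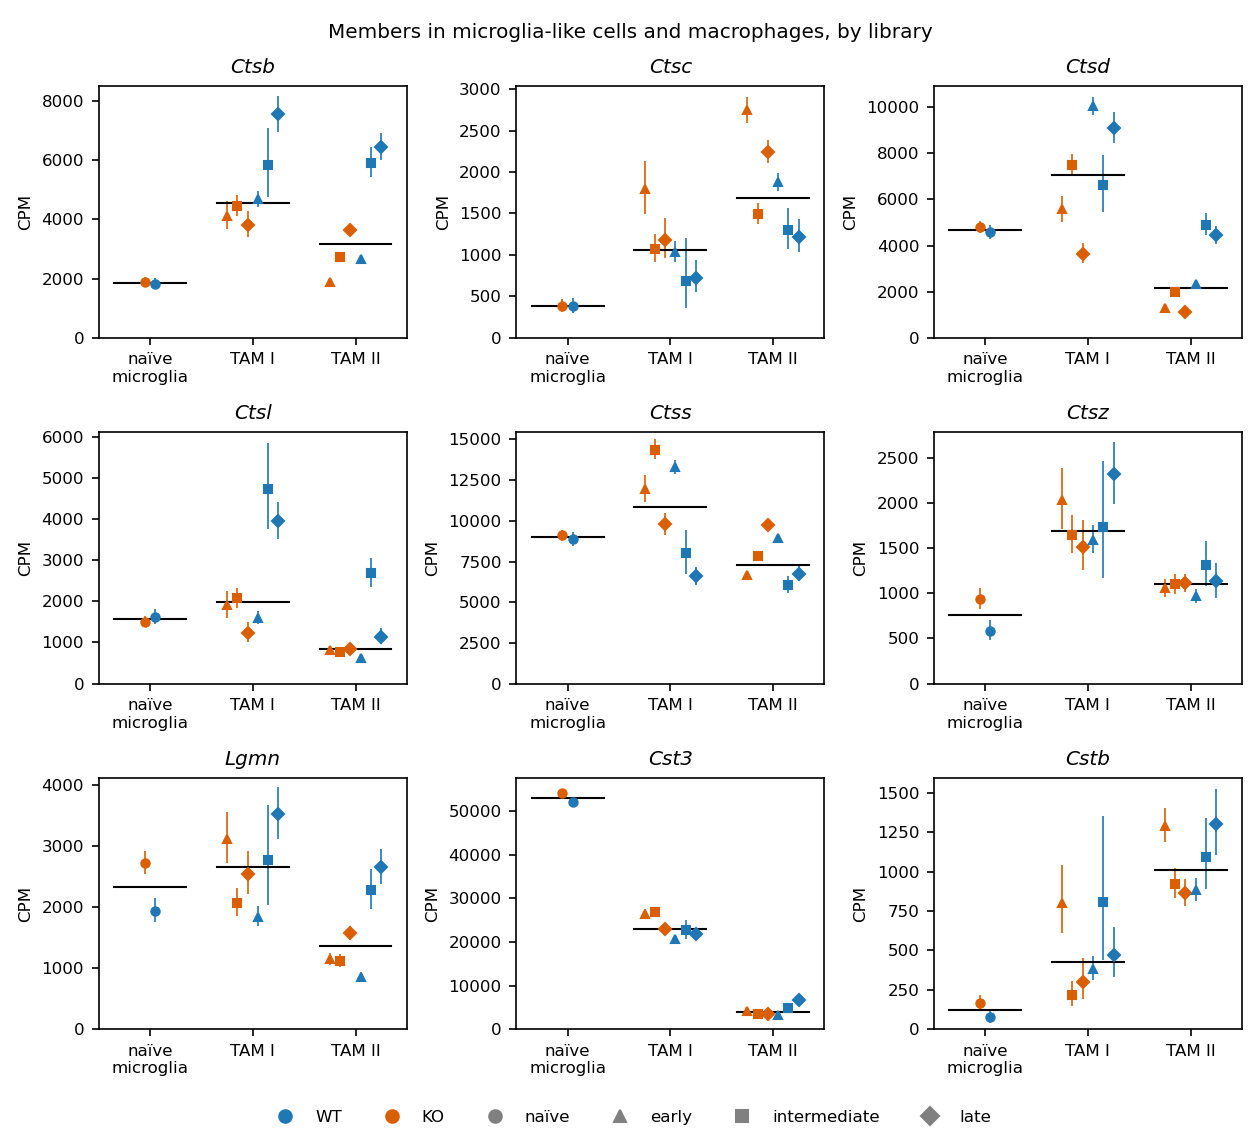
CPM (vertical axes, each starting at 0) of the 9 genes in naïve microglia, TAM I and TAM II, with a point per library (colour for genotype, shape for stage), 95% exact Poisson intervals for counting error, and a line at the median. Cst3 falls from 51970 and 54190 in naïve microglia to 20800 to 26950 in TAM I and 3256 to 6837 in TAM II, while the medians of Ctsc and Cstb increase in the same order of classes.

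Cst3 had 20800, 26420, 22790, 26950, 21740 and 22990 CPM in TAM I, and 3256, 4261, 4815, 3440, 6837 and 3621 in TAM II. All TAM II libraries lay below all TAM I libraries. Ctsd, the aspartic protease, had 10060, 5580, 6619, 7502, 9087 and 3657 in TAM I and 2347, 1308, 4906, 1992, 4454 and 1104 in TAM II. It was lower in TAM II of every library, although the ranges overlapped because the KO late value in TAM I was below the WT intermediate and WT late values in TAM II. Ctsl (fell by 1.24 ± 0.18), Lgmn (fell by 0.86 ± 0.17) and the carboxypeptidase Ctsz (fell by 0.74 ± 0.15) were lower in TAM II in 6 of 6 libraries too, each with an adjusted p of 0.00137 or lower.

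Ctsc, the dipeptidyl peptidase that activates granule serine proteases, had 1039, 1790, 690.7, 1070, 724.4 and 1185 CPM in TAM I and 1875, 2745, 1301, 1496, 1220 and 2242 in TAM II. It was higher in TAM II of every library by 0.69 ± 0.15 (log2, adjusted p = 0.0018), with ranges that overlapped between mice. Cstb had 382.3, 803.2, 805.8, 215.3, 470.2 and 302.7 in TAM I and 883.6, 1291, 1095, 924, 1302 and 862.2 in TAM II, and the classes did not overlap (1.21 ± 0.19, adjusted p = 1.01e-04). The 2 cystatins thus lay on opposite sides. Ctsb (-0.54 ± 0.18, adjusted p = 0.033) and Ctss (-0.49 ± 0.17, adjusted p = 0.0349) were close to the threshold, lower in 5 of 6 libraries each, and both were no longer called without WT early, KO early or KO intermediate, nor Ctsb without WT late and Ctss without WT intermediate. Under 10 alternatives other than left-out libraries, Ctsb was called in 3 (log2 -0.64 to -0.21) and Ctss in 4 (-0.54 to -0.16).

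Of the 2457 genes tested, 15.7% were higher and 15.1% lower in TAM II, against 2 and 7 of the 9 members, and the median log2 fold change was 0.058 for all genes and -0.74 for the members. Of the other lysosomal genes 5 of 45 tested were higher and 9 lower, with a median of -0.24. Among the lowest were the cystatin Cst7 (-3.54 ± 0.35, adjusted p = 8.6e-07) and the phospholipase Pla2g15 (-1.16 ± 0.26, adjusted p = 0.00257). The highest were Acp5 (5.53 ± 0.46, adjusted p = 1.2e-07), with a median of 225.8 CPM in TAM II and 0 in TAM I, Gm2a (1.02 ± 0.25), a lipid-binding activator protein of the lysosome, and the proton pump subunit Atp6v1a (0.71 ± 0.21, adjusted p = 0.0173).

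**Figure D3:**
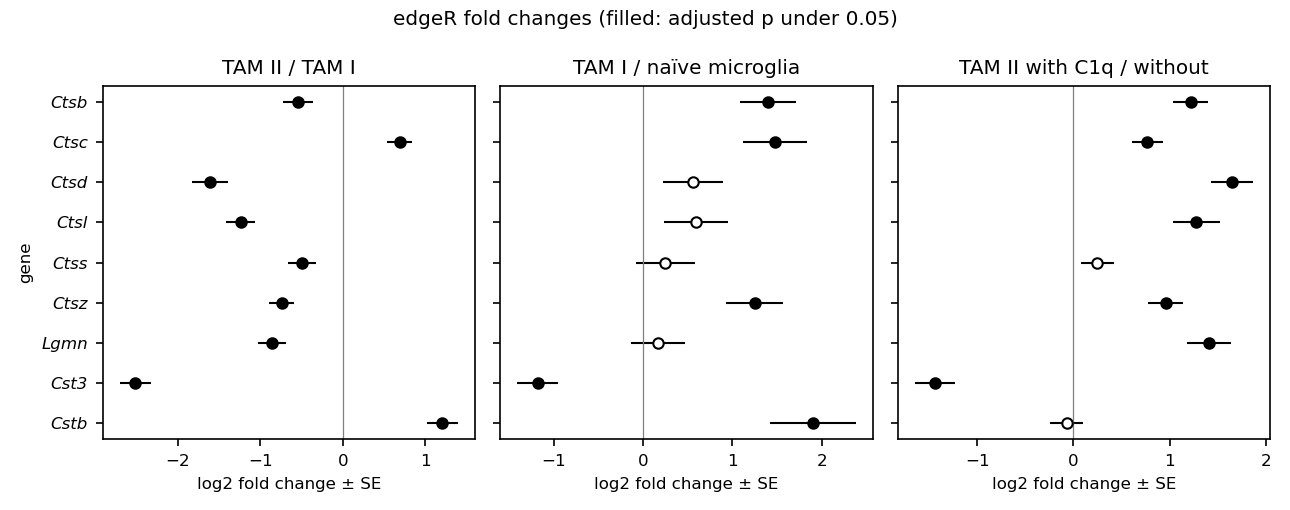
Log2 fold changes ± SE from edgeR (horizontal axes) of the 9 genes (rows) for TAM II over TAM I, TAM I over naïve microglia, and TAM II with C1q over TAM II without, with filled points for an adjusted p under 0.05. Cst3 lies below 0 in all 3 panels, at -2.52, -1.18 and -1.44, of which the last reversed when cells named dendritic by any alternative clustering were left out.

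TAM II was divided by C1q, complement genes of mature macrophages and microglia, into cells with at least 3 UMIs over C1qa, C1qb and C1qc and cells with fewer, a split that used no member. The cells with C1q were also deeper in every library, with medians of 2848 to 4764 UMIs per cell against 2231.5 to 2952, and the part of depth in the differences was not tested. The proteases Ctsd (1.65 ± 0.22), Lgmn (1.41 ± 0.23), Ctsl (1.28 ± 0.24), Ctsb (1.22 ± 0.18), Ctsz (0.96 ± 0.18) and Ctsc (0.77 ± 0.16) were higher in cells with C1q (adjusted p of 0.00616 or lower), whereas Ctss (0.25 ± 0.17) and Cstb (-0.07 ± 0.17) were not called. Ctsd had 2514, 1454, 5640, 2058, 5665 and 1223 CPM with C1q and 493.9, 632.4, 2023, 1370, 1109 and 300.8 without, higher in every library. Of the 1300 genes tested 5.69% were higher and 5.23% lower, against 6 and 1 of the 9 members, with medians of -0.009 and 0.96. The other lysosomal genes were higher in 10 of 33 and lower in 0 of 33, with a median of 0.41, led by Cd63 (1.98 ± 0.34) and Acp5 (1.68 ± 0.44), with adjusted p-values of 0.021 or lower.

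Cst3 was the member lower with C1q, at 2647, 3197, 3980, 3070, 3390 and 3286 CPM against 10020, 9169, 8093, 6878, 16360 and 5883 without (-1.44 ± 0.21, adjusted p = 0.000399). Dendritic-like cells moved with this value. The class named dendritic by its markers held 17630 and 25450 of Cst3 (KO early and KO intermediate, 7 and 10 cells) but 0 and 0 of Ctsd and 0 and 38.91 of Ctsl. In at least 1 of the alternative clusterings 36 TAM II cells, 33 of them without C1q, were named dendritic. One of these clusterings kept the lysosomal genes, Cst3 among them. The 8 dendritic markers summed to 369.8 to 2094 in TAM II without C1q and to 0 to 1057 in those with it. Without those 36 cells, an alternative chosen after seeing the data, Cst3 was 0.38 higher with C1q (log2, adjusted p = 0.3165), and 4 members remained called, Ctsb (0.73), Ctsd (1.00), Ctsz (0.79) and Lgmn (1.06). Cst3 was also not lower with another tSNE seed (0.07), with the lysosomal genes kept in the clustering (0.42) or with cells of at least 500 genes (0.23), and with another seed or those genes kept only 1 member was called. These clusterings are among those whose dendritic names gave the 36 cells, so they are not independent of that alternative.

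The microglia-like cells of tumours were compared with naïve microglia to see how the members moved in resident cells. Cstb (1.90 ± 0.48), Ctsc (1.48 ± 0.36), Ctsb (1.40 ± 0.31) and Ctsz (1.25 ± 0.32) were higher in TAM I, with adjusted p-values of 0.0131 or lower, and Cst3 fell by 1.18 ± 0.23 (adjusted p = 0.00174). In these 5 members the 6 tumour-bearing and 2 naïve libraries did not overlap, nor did they in 16 of the 89 other lysosomal genes found (97 listed). The share over all genes was not counted. Ctsd (0.56 ± 0.34), Ctsl (0.59 ± 0.36), Ctss (0.25 ± 0.33) and Lgmn (0.17 ± 0.30) were not called.

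Cst3 made up 51970 and 54190 CPM in WT and KO naïve microglia, a mean of 5.31% of all their UMIs, against 20800 to 26950 in TAM I. Ctsb had 1832 and 1897 in naïve microglia and 4672, 4115, 5813, 4454, 7536 and 3809 in TAM I. Ctsz had 587.1 and 938 against 1513 to 2313, and Cstb 75.92 and 166.8 against 215.3 to 805.8. Of the 3124 genes tested 9.86% were higher and 7.07% lower in TAM I, against 4 and 1 of the 9 members, and the medians were 0.005 for all genes and 0.59 for the members. Among the other lysosomal genes 5 of 54 were higher and 0 lower (median 0.09), led by Cst7 (4.53 ± 0.96, adjusted p = 0.00346), the tetraspanin Cd63 (1.36 ± 0.37, adjusted p = 0.0177) and the carboxypeptidase Scpep1 (1.34 ± 0.36, adjusted p = 0.016). The comparison rests on 2 naïve libraries, with 0 members called without either of them, and the TAM I sums are the same as those compared with TAM II.

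Other RNA moved with this comparison. The 10 macrophage markers summed to 1955 to 5861 CPM in TAM I and 674 to 728.9 in naïve microglia, with Chil3 at 0 in both and Arg1, Ly6c2 and Plac8 at 0 in naïve microglia. The 6 astrocyte markers summed to 57.56 to 277.4 in TAM I, with Aqp4 and Htra1 at 0, and to 1134 to 1244 in naïve microglia. The 8 tumour cell markers summed to 289.6 to 1766 in TAM I, with Dppa2 at 0, and to 172.1 to 194.6 in naïve microglia, with Col11a1, Col3a1, Col9a1, Dppa2 and Met at 0, and Cstb is the member highest in tumour cells. Their part in the result was not tested.

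Within TAM I the members differed between clusters, which had been formed without them. The 72 cells of the 2 clusters led by Cst7, in 5 libraries with at least 5 such cells, had 5002 to 8729 CPM of Ctsb (median 6148), and the 101 other TAM I cells had 2113 to 2817 (median 2420). Ctsb, Ctsc, Ctsd, Ctsz and Cstb were higher in the clusters led by Cst7 in 5 of 5 libraries, and Ctsl, Ctss and Lgmn in 3, 4 and 2 of 5. Cst3 was lower in 5 of 5, at 7461 to 19100 against 36030 to 40130, and so was the homeostatic microglial receptor P2ry12, at 286.7 to 1066 against 1389 to 3029. These are descriptions with no test, as the clusters come from the same cells.

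**Figure D4:**
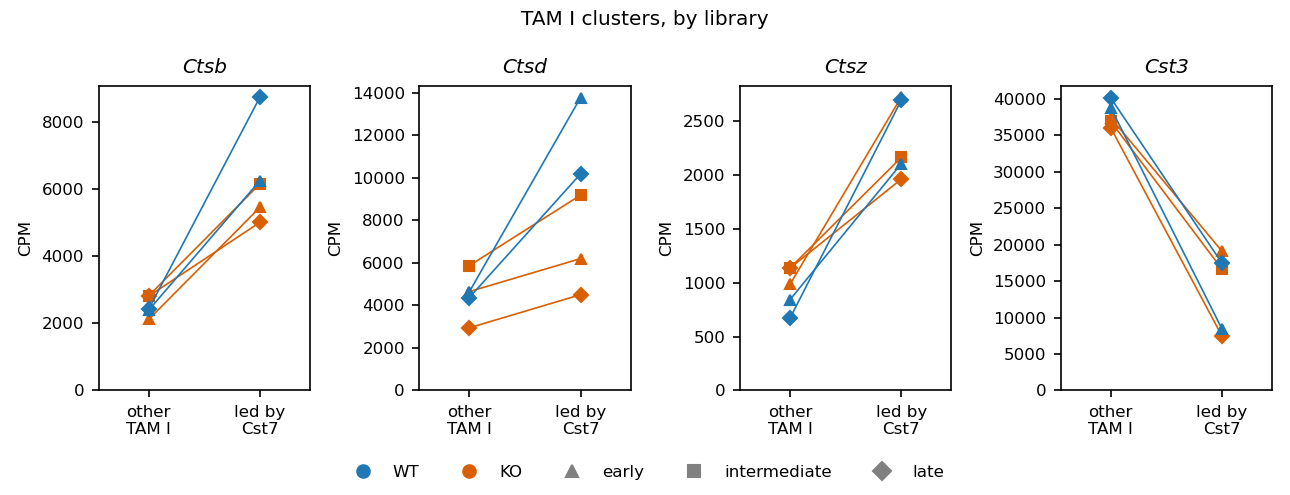
CPM (vertical axes, each starting at 0) of Ctsb, Ctsd, Ctsz and Cst3 in the TAM I clusters led by Cst7 and in the other TAM I cells, with a line for each of 5 libraries. Ctsb, Ctsd and Ctsz are higher and Cst3 is lower in the clusters led by Cst7 in every one of these libraries.

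The clusters led by Cst7 also had more macrophage marker RNA (1382 to 8633 CPM against 605 to 2436, 10 markers) and a higher depth (library medians of 3817 to 6061.5 UMIs per cell against 2087 to 2841), while the 13 microglial markers stood at 22000 to 33610 and 30360 to 40740. Their part in the differences was not tested. Naïve microglia lay almost wholly in another cluster (198 of 199 cells, with 10 TAM I cells).

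Astrocytes, which secrete cystatin C in the brain, were near the microglia-like cells of tumours in Cst3 but lower in the other members. In the naïve libraries, part of the comparison below, Cst3 was 51970 and 54190 CPM in microglia and 23280 and 24860 in astrocytes. In 7 libraries with both classes, the 8 other members were lower in astrocytes, from Cstb (-1.44 ± 0.36) and Ctsl (-1.50 ± 0.30) to Ctss (-5.94 ± 0.61), with adjusted p-values of 0.00174 or lower, while Cst3 was not called (-0.38 ± 0.28, adjusted p = 0.237). Among the 1338 genes tested 40.0% were lower in astrocytes, with a median of -0.228, and the median of the members was -3.40. The other lysosomal genes were lower in 21 of 33 and higher in 1 (Laptm4a, 1.02 ± 0.25, adjusted p = 0.0013), and among the lowest were Laptm5 (-5.73 ± 0.46) and the aminopeptidase Ctsh (-4.80 ± 0.34).

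**Figure D5:**
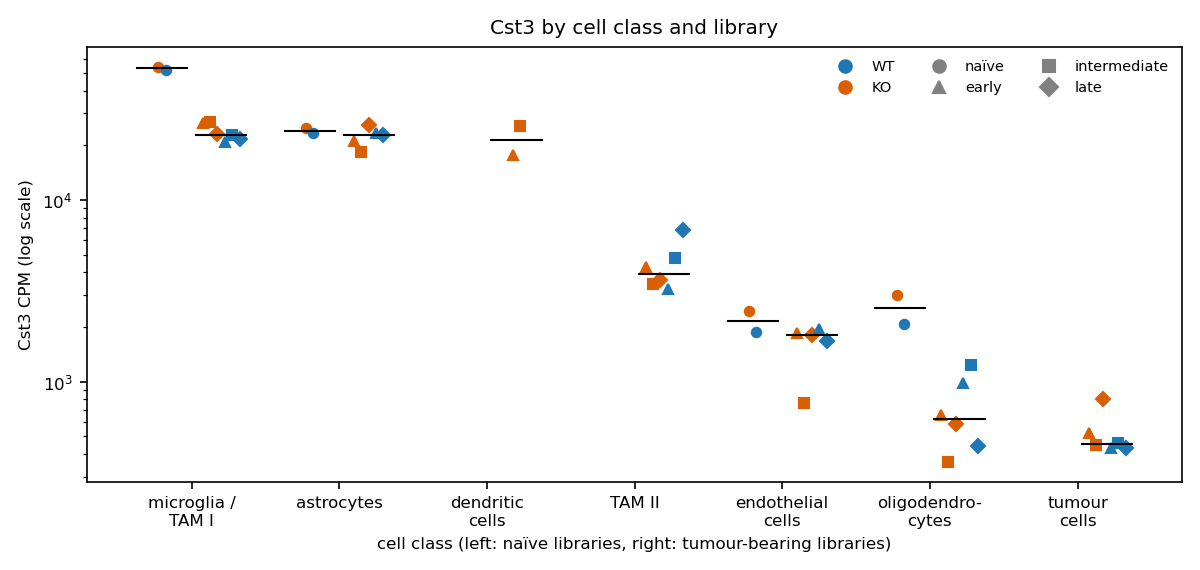
Cst3 in CPM (vertical axis, log scale) for 7 cell classes, with naïve libraries on the left and tumour-bearing libraries on the right of each class, a point per library and a line at the median. Microglia-like cells drop from a median of 53080 to 22890 and oligodendrocytes from 2535 to 621, while astrocytes have medians of 24070 and 22850.

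Cst3 stood in astrocytes at 23280 and 24860 CPM in naïve libraries and at 23300, 21180, 18320, 22850 and 26000 in WT early, KO early, KO intermediate, WT late and KO late. In these cells 0 of the 5 members tested differed between tumour-bearing and naïve libraries by edgeR (1 at an unadjusted p under 0.05, 0 by DESeq2), with 1.14% of 613 genes called, and Cst3 had -0.21 ± 0.24. The tumour-to-naïve change of Cst3 in microglia-like cells differed from that in astrocytes by -1.05 on the log2 scale, since the log2 ratio of microglia-like cells to astrocytes was 1.14 in naïve libraries and 0.09 ± 0.33 (SD, n = 5) in tumours. An exact permutation over libraries, added after seeing the data, gave p = 0.04762, the smallest this design allows, and 0.2143 after adjustment over 18 such tests.

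In oligodendrocytes 1 of 7 members tested was called, with Cst3 at 2077 and 2992 CPM in naïve libraries and 985.2, 657.8, 1234, 361.6, 441.9 and 584.2 in tumours (-1.91 ± 0.32, adjusted p = 0.00487), where 0.676% of 2664 genes were lower. Of the other lysosomal genes 1 of 28 tested was called, lower in tumours. RNA of other cells moved with these values. The 13 microglial markers summed to 904.7 to 1358 CPM in naïve oligodendrocytes and 254.1 to 646.5 in those of tumours, none of them at 0 in all libraries of either group, and the 6 astrocyte markers to 1549 to 2193 and 285.3 to 1476. At the C1q share of these cells, myeloid RNA would carry 85.02 and 40.19% (1766 and 1202 CPM) of their Cst3 in WT and KO naïve. In tumours it would carry 0 to 16.28%. At the share of their astrocyte markers, astrocyte RNA would carry 1214 and 1991 CPM of Cst3 in the WT and KO naïve libraries. In 5 tumour libraries it would carry 217.3 to 623.6 CPM, above the whole Cst3 level in WT late (540.4 against 441.9). In both naïve libraries the myeloid and astrocyte amounts summed to more than the whole Cst3 level (2077 in WT, 2992 in KO). Such sums were not formed for the tumour libraries. The part of myeloid and astrocyte RNA in the difference was not tested. In endothelial cells 0 of 5 members tested were called by edgeR (0 at an unadjusted p under 0.05 and 0 by DESeq2), with 5.43% of 1419 genes called in either direction, and the largest value was that of Ctsb (0.71 ± 0.34, adjusted p = 0.307).

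The KO and WT tumours were compared within each stage to see whether loss of Acod1 went with a change of these genes. No member was called by edgeR in TAM I, TAM II or tumour cells. In TAM I 0% of 1442 genes were called (1 gene by DESeq2), in TAM II 0.0724% of 5526 and in tumour cells 0.0146% of 13730, and 1, 2 and 3 members had an unadjusted p under 0.05 in the 3 classes. DESeq2 called 0, 1 and 1 members, Ctsd in TAM II and Ctss in tumour cells, among 1, 10 and 68 genes that it called in the 3 classes.

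Ctsd in TAM II was the value nearest to a call. It stood at 1308, 1992 and 1104 CPM in KO early, intermediate and late and at 2347, 4906 and 4454 in WT, lower in KO at 3 of 3 stages without overlap (-1.36 ± 0.30, adjusted p = 0.140). The adjusted p was 0.0212 by DESeq2 and ranged from 0.000606 to 0.9997 over the alternatives. Ctsb was lower in KO at 3 of 3 stages in TAM II (-0.79 ± 0.28, adjusted p = 0.812) and in TAM I (-0.54 ± 0.35), and Ctsc was higher in KO at 3 of 3 stages in both (0.57 ± 0.28 and 0.68 ± 0.36). The macrophage class of the WT libraries was small at the intermediate and late stage, with 17 and 27 cells against 89 and 115 in KO.

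In tumour cells Ctss was higher in KO at 3 of 3 stages (1.42 ± 0.31, adjusted p = 0.409), as were Ctsz (0.45 ± 0.16) and Lgmn (0.41 ± 0.23). The 10 macrophage markers summed to 125.9 to 246.4 CPM in WT tumour cells and 117.4 to 850.6 in KO, with Chil3 at 0 in WT, and the 13 microglial markers to 1046 to 1738 and 1888 to 2811. C1qa, C1qb and C1qc summed to 44.08, 7.741 and 103 CPM in WT early, intermediate and late and 76.23, 24.22 and 422.4 in KO. Most of the microglial sum thus came from other markers of the list, and which cells made that RNA was not tested. The part of these markers' RNA in the differences was not tested. Of the other lysosomal genes 0 of 40, 0 of 63 and 0 of 76 tested were called in TAM I, TAM II and tumour cells, with medians of -0.06, -0.06 and 0.10.

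With 1 library per genotype and stage, stages were read as values only. Ctsb in TAM II had 2659, 5910 and 6436 CPM in WT early, intermediate and late and 1874, 2725 and 3628 in KO, the lowest at the early stage in both genotypes. Cst3 in TAM II had 3256, 4815 and 6837 in WT, while in KO it had 4261, 3440 and 3621 with no such order. Ctss in TAM II had its highest KO value at the late stage (9722 after 6644 and 7859) and its highest WT value at the early stage (8964 before 6081 and 6755).

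The genes whose levels were most like those of each member were sought over 39 class-by-library sums of at least 20 cells from 10 classes, among 4220 genes, as a description with no test, since sums of a library share its depth and those of a class share its cells. Ctsb was most like Lgmn (Pearson r = 0.932), the carboxypeptidase Ctsa (0.915) and Ctsz (0.905), and Ctsd was most like Ctsz (0.894), Ctsa (0.889) and Ctsb (0.888). Ctss was closest to general myeloid genes, Ly86 (0.940), Fcgr3 (0.930) and Tyrobp (0.927), and Ctsc to Pycard (0.883) and Arpc2 (0.874). Ctsz was nearest to the receptor genes Cd300c2 (0.927), Fcgr1 and Tlr2, and Ctsl to Camk1 (0.874), Lrpap1 (0.867) and Acp2. Cst3 was nearest to the lysosomal glycoprotein Creg1 (0.854) and the microglial receptors P2ry12 (0.834) and Mertk (0.824), and Cstb to the proteasome subunit Psma7 (0.797), the lectin Lgals3 (0.787) and Nhp2 (0.784). The 2 cystatins had r = -0.34 with each other.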

How the data were processed

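For each of the 8 libraries the authors deposited UMI counts per gene and barcode, not normalized, for 3000 barcodes, and per the labels bcl2fastq 2.0, STAR and GRCm38/mm10 were used. After the study's filters (top 1000 barcodes, genes in at least 30 cells, cells with at least 1000 genes) 5698 cells were left, a number that differs from the study's own. Cells were clustered on 50 components of log2(CPM + 1) (CPM, UMIs per 1000000) by tSNE (Rtsne 0.17, perplexity 50) and HDBSCAN with at least 19 cells (scikit-learn 1.9.0), with all listed lysosomal genes left out, and named by markers, so the names were rebuilt here. Leiden clustering separated microglia from macrophages where their markers shared a cluster. Doublets were kept. In an alternative, cells called by Scrublet were removed, or, in the 4 libraries where it called 0 to 2 cells, the 5% of cells with the highest score.

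Counts were summed per library and class (at least 5 cells, 17374 UMIs in the smallest sum) and tested by edgeR 4.0.16 (quasi-likelihood, TMM, filterByExpr) with the library or stage as a block, or genotype as a covariate, and Benjamini-Hochberg adjustment over all genes tested at 0.05. DESeq2 1.42.0, no filter, other clusterings and left-out libraries were alternatives. On simulated counts 79.4% (TAM II, KO against WT, 5180 genes) to 100% (TAM II against TAM I, 2325 genes) of 4-fold changes were recovered. The simulation changed 200 genes per comparison and had no library or stage effects. Recovery of smaller changes, or with fewer genes changed, was not simulated. A library is 1 sample. The 9 members, the list of 97 other lysosomal genes (89 found) and the markers were chosen with earlier results of these data known. All 9 members are named, and of the other listed genes the 3 largest called changes each way. Some genes that this rule would name are not reported here.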

Additional observations from a re-analysis of the deposited data

Results flagged for a closer look

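In 12 of 71 groups of 5 or 6 libraries, 1 library stood apart from the others by Dixon's criterion. Normally distributed values meet it by chance in about 1 of 20 groups, but some groups here held few UMIs. KO late had 4 of these values in tumour cells, where Ctsc was 79.7, Ctss 343.7, Lgmn 101.1 and Cst3 806.4 CPM, and it was also the library whose tumour cells held the most C1q RNA. KO late further had Ctss at 596.3 in endothelial cells and Ctsz at 61.73 in OPCs, the latter from 1 UMI. WT intermediate had Ctsl at 2693 in TAM II, from 17 cells, and Ctss at 71.62 in lymphocytes, where the other libraries had 287.2 or more. The remaining values were Ctss at 10.07 in OPCs of WT early, from 1 UMI, Ctsz at 358.1 in astrocytes of WT late, Cst3 at 762 in endothelial cells of KO intermediate, below the 1673 or more of the others, and Cst3 at 5593 in lymphocytes of KO early.

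The 2000 barcodes per library ranked below the cells also held RNA of all 9 members. Pooled over libraries, they had 578.1 CPM of Ctsb, 137.4 of Ctsc, 613.7 of Ctsd, 443.8 of Ctsl, 1163 of Ctss, 200.5 of Ctsz, 262.7 of Lgmn, 7380 of Cst3 and 719.8 of Cstb. Cst3 in these barcodes was 20170 to 24850 in naïve libraries and 2288 to 9921 in tumour-bearing ones, whereas Cstb was 71.35 to 102.2 and 499.8 to 1753.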

How the results depend on the processing

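For the 38 calls of a member, 562 of 619 alternative values kept the direction and the call, 53 kept the direction only and 4 reversed. The reversals were all of Cst3 in TAM II with C1q against those without, at 0.07 with another tSNE seed, 0.42 with the listed genes kept in the components, 0.23 with cells of at least 500 genes and 0.38 without the cells named dendritic elsewhere, and the 7 members called there became 3 with no library block, 1, 1 and 4 (seed, listed genes, dendritic-named cells). The 5 members called in microglia-like cells became 0 to 5 with a library left out, 0 without WT naïve or KO naïve. In astrocytes of tumour-bearing against naïve libraries, 0 became 1 (Ctss) with no filter, at least 10 cells or at least 500 genes, and 0 to 1 with a library left out. In oligodendrocytes 1 became 2 with no filter, 0 with doublets removed, and 0 to 2 with a library left out (0 without KO naïve, 2 without WT early). In endothelial cells 0 became 1 (Ctsb) with another seed, Leiden clustering, listed genes kept or at least 500 genes. For KO against WT, 0 in TAM II became 1 (Ctsd) by DESeq2 or with no filter and 0 to 1 with a stage left out (1 without early), and 0 in tumour cells became 1 (Ctss) by DESeq2, 2 with no filter and 0 to 1 with a stage left out (1 without intermediate). The cause of these changes was not tested. Of 713 alternative values of members not called, 21 passed the threshold.

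Without the filter on low counts the members moved together, by a median of 0.32 (log2) in TAM II against TAM I, 0.37 for C1q, -0.47 in astrocytes against microglia-like cells, -0.36 in astrocytes, -0.17 in endothelial cells, 0.17 in TAM I and 0.14 in TAM II of KO against WT. The genes called changed with it from 757 to 1441 (51 and 65.9% of them higher), 142 to 332 (52.1 and 81.9%), 951 to 4106, 7 to 51, 60 to 213 in oligodendrocytes (70 and 53.5%), 0 to 4, 4 to 56 (50 and 71.4%) and 2 to 488 in tumour cells (50 and 63.5%). The C1q split gave 39 with the listed genes kept, endothelial cells gave 314 by Leiden clustering in place of 77, and KO against WT gave 0 in TAM II and in tumour cells with no stage block. With a library or stage left out the genes called ranged from 87 to 135 for C1q, 60 to 602 in microglia-like cells (529 with all), 3 to 24 in astrocytes, 3 to 82 in oligodendrocytes, 26 to 129 in endothelial cells and, for KO against WT, 0 to 10 in TAM I, 0 to 87 in TAM II and 4 to 121 in tumour cells. DESeq2 called 68 genes in tumour cells (77.9% higher), 10 in TAM II, 1 in TAM I and 11 in astrocytes (42.9 against 63.6% higher). The smallest sums, such as the 5 TAM I of WT intermediate, limit what can be seen: low members (Ctsc, Ctsz, Cstb) had few UMIs in rare classes. No paired analysis by replicate number was possible because each group holds 1 library, so stage and library served as blocks.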
